A study of Homo sapiens with 12 samples.

Results

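The p53 target genes described here are 31 human genes whose transcription the tumour suppressor p53 is known to switch on in stressed cells. They were taken as a list of named genes, chosen with earlier results of these data known. They make up 31 of the 18417 genes with a probe set that names a single gene. In the array results, shares of all genes set beside the members' counts are therefore a description and not an independent comparison. All 31 were measured, each by 1 probe set. The arrays came from EA.hy926, a single human line, a hybrid of endothelial cells from the umbilical vein and the lung carcinoma line A549. One culture had been adapted to medium with 23 nM folic acid (Lo cells) and was compared with cells kept at the usual 9 uM folic acid (Hi cells). All cells were grown in the same basal medium with 10% serum, antibiotics (penicillin G and gentamycin), fungizone and non-essential amino acids. A medium change 24 h beforehand is listed for all arrays, and the step it preceded is not stated here. There were 4 groups of 3 arrays, stated to be biological replicates: Lo cells given 0.5 uM pemetrexed for 48 h (Lo pemetrexed), Lo cells without the drug (Lo control), Hi cells given the same dose for the same time (Hi pemetrexed) and Hi cells without the drug (Hi control). Pemetrexed is an antifolate drug that blocks thymidylate synthase and other folate enzymes. The Lo cells are an adapted culture of one line, so folic acid supply and any other difference between the 2 cultures cannot be told apart, and p-values measure only the spread between these replicates.

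In unstressed cells p53 is kept low by the ubiquitin ligase MDM2, which p53 itself induces. Damaged DNA or stalled replication, such as follows from a shortage of nucleotides under an antifolate, frees p53 from MDM2, and p53 then binds response elements near its target genes. Its targets hold back the cell cycle, promote cell death, repair DNA, change metabolism and, in a feedback loop, switch p53 off again.

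The 4 promoter windows below are shown because each holds letters that match the p53 response element, the sequence through which p53 is known to act on these genes. The element by its consensus is a pair of 10-base sites with 0 to 13 bases between them. It reads the same on both strands, so a search of 1 strand covers both, and matches that overlapped were counted once per window. Up to 2 mismatches were allowed over the pair, none of them at the central C and G of either site. Windows of 300 bases, from 250 before to 50 after each annotated start, came from RefSeq (GRCh38.p14). They were matched by gene identifier to 24 of the 31 genes, which had 36 windows. TNFRSF10B, TRIM22, PHLDA3, TP53INP1, RRM2B, FBXO22 and GADD45A were not among them. A match was found in 5 of the 36 windows (13.9%), against 1030 of 35116 windows of all genes (2.93%), and it fell in 4 genes, since both overlapping MDM2 windows hold the same one. By gene, 4 of 24 had a match (16.7%), against 989 of 27305 over all genes with a window (3.62%). The genes are listed as known p53 targets, and p53 acts through this element. These shares are therefore a description and not an independent comparison. DDB2 had the only match without a mismatch among these genes, with 1 base between its sites, and windows of that kind were 10 of the 35116 (0.0285%). Capitals mark the matched letters in each window, and all 4 are on the plus strand.
DDB2, chr11:47214724-47215023, match from 6 to 26, counting the start as base 1: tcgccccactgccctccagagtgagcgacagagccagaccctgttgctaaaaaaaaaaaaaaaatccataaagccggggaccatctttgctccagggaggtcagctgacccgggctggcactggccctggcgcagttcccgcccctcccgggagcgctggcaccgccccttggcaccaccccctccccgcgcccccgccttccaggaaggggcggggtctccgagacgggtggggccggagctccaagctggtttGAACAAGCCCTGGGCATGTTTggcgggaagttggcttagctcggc
FAS, chr10:88991181-88991480, match from -122 to -103 relative to the start, 2 mismatches: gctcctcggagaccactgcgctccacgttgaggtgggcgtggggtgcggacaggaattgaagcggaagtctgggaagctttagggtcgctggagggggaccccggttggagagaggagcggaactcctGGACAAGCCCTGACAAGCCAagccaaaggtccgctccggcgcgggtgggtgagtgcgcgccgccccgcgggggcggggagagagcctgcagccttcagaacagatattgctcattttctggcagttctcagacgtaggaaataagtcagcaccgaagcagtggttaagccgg
MDM2, chr12:68808767-68809066, match from -94 to -75, 2 mismatches: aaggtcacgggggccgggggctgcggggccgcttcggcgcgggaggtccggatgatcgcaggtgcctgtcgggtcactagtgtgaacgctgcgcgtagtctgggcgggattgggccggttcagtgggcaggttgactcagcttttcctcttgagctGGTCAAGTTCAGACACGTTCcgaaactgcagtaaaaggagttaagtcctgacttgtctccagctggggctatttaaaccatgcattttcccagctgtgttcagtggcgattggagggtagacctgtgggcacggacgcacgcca
AEN, chr15:88621090-88621389, match from -34 to -15, 2 mismatches: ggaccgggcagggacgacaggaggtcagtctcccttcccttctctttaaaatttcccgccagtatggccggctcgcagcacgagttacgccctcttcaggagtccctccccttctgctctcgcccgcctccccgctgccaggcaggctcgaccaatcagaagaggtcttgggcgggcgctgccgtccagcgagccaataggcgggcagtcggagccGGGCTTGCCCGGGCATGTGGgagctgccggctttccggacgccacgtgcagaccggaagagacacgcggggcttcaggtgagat
A match describes letters in a window and is not evidence of binding, and the other windows are only without such letters.

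Values are log2 levels of probe sets, so a gene can be compared between arrays but its level cannot be set against that of another gene. Array medians lay between 7.24 and 7.33. Endothelial markers were present (9 of 10 were above the median gene). Keratins 7, 8 and 18 were above the 96th percentile, while keratin 19 was at percentile 44.7. The epithelial and lung markers EPCAM, CDH1, SFTPC, SFTPB, NAPSA and NKX2-1 lay between percentiles 14.5 and 32.2 of all genes. A pair of control arrays stood apart from their labels. The array labelled Hi control 3 had a mean correlation of 0.995 with the Lo controls and 0.990 with the other Hi controls, and the array labelled Lo control 3 had 0.996 with the Hi controls and 0.992 with the other Lo controls. Whether these 2 arrays were exchanged was not tested. Labels were kept, and the counts of called genes are given with all 12 arrays and again with the 10 arrays left without this pair.

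The p53 targets were higher in Lo cells given pemetrexed than in Lo control cells. Of the 31 genes, 19 rose and 0 fell at an adjusted p under 0.05 (limma, Benjamini-Hochberg over all 18417 genes), where 5.60% of all genes rose and 5.14% fell. The fitted log2 change was above 0 for all 31, from 0.04 to 1.23, with a median of 0.48 against 0.02 over all genes. On 28 of the 31 genes every Lo pemetrexed array was above every Lo control array (15.7% of all genes), and on 23 of the 31 the lowest Lo pemetrexed array was also above the other 9 arrays of the study (9.37% of all genes). With 10 arrays 18 rose and 0 fell (5.21% and 5.74% of all genes), all 18 among the 19, and SPATA18 was the gene lost. The mean level of 10 endothelial markers was 9.99 to 10.12 on the Lo pemetrexed arrays, 10.38 to 10.96 on the Lo control arrays, 10.92 to 11.10 on the Hi pemetrexed arrays and 10.40 to 11.10 on the Hi control arrays, and 4 of the 10 fell in Lo pemetrexed cells. Both control ranges include the arrays that stood apart from their labels. The part of the endothelial markers' change in the p53 targets' change was not tested. In bulk RNA of a single line, less RNA per cell and fewer cells that express a gene cannot be told apart.

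**Figure D1:**
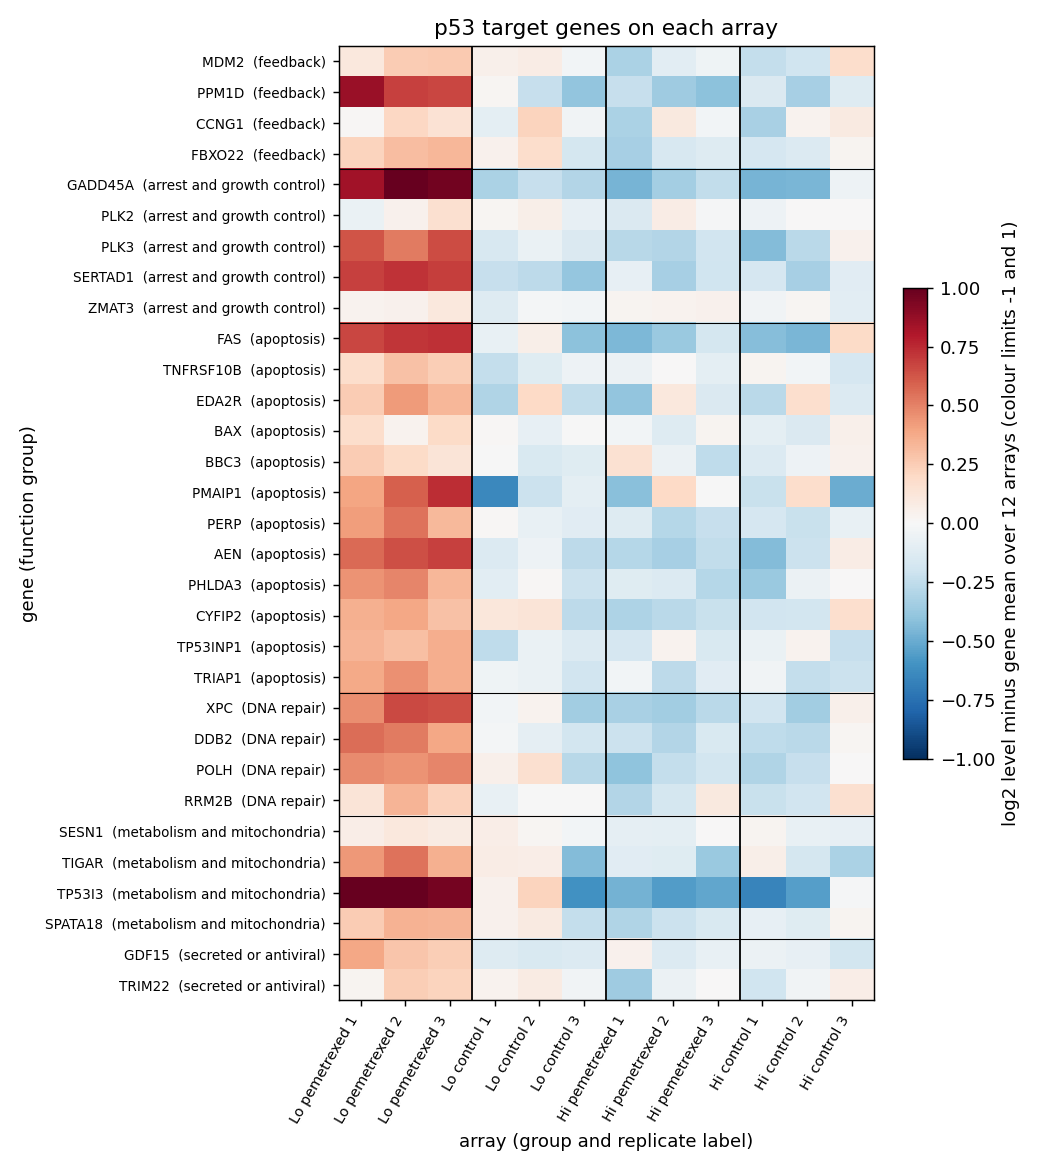
Log2 level of the 31 p53 target genes (down, by function group) on each of the 12 arrays (across, by group and replicate label), minus the gene's mean over the 12 arrays, with colours limited at -1 and 1. The 3 Lo pemetrexed arrays are the reddest columns, and the array labelled Lo control 3 is bluer than the other Lo controls on genes such as TP53I3 and FAS, where the array labelled Hi control 3 is redder than the other Hi controls.

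Of the 4 genes that feed back on p53, PPM1D rose in Lo cells. It encodes a phosphatase that removes activating phosphates from p53 and from damage kinases. Its level was 12.74, 12.56 and 12.55 on the Lo pemetrexed arrays, against 11.90, 11.65 and 11.48 on the Lo control arrays, 11.65, 11.53 and 11.47 on the Hi pemetrexed arrays and 11.74, 11.55 and 11.75 on the Hi control arrays. All 3 Lo pemetrexed arrays were above the other 9, which overlapped. The change in Lo cells was 0.94 ± 0.11 on the log2 scale (SE, 1.92-fold, adjusted p = 0.000169). MDM2, the ligase that marks p53 for degradation and whose promoter match is printed above, did not pass the test. It had 13.37, 13.52 and 13.53 in Lo pemetrexed cells, against 13.32, 13.34 and 13.24 in Lo control cells, 12.96, 13.16 and 13.23 in Hi pemetrexed cells and 13.03, 13.07 and 13.44 in Hi control cells. The Lo pemetrexed arrays lay just above the Lo controls, with a difference of 0.17 ± 0.11 (95% interval -0.06 to 0.41, adjusted p = 0.396), while the array labelled Hi control 3 was above 1 of them. FBXO22, part of a ubiquitin ligase that acts on p53, had 10.63, 10.72 and 10.74 in Lo pemetrexed cells, against 10.45, 10.58 and 10.24 in Lo control cells, 10.08, 10.25 and 10.28 in Hi pemetrexed cells and 10.24, 10.27 and 10.44 in Hi control cells. Its Lo pemetrexed arrays were the 3 highest of the 12, but the difference from Lo controls, 0.27 ± 0.10, did not pass the test (adjusted p = 0.0927). CCNG1, a cyclin that works with a phosphatase on MDM2, differed by 0.09 ± 0.13 in Lo cells and its groups overlapped.

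Among the 5 genes of cell cycle arrest and growth control, 3 rose in Lo cells, and they include the member with the largest fitted change. GADD45A, which binds cell cycle kinases and the replication clamp and slows division after damage, had 11.38, 11.59 and 11.50 in Lo pemetrexed cells, against 10.22, 10.31 and 10.24 in Lo control cells, 10.07, 10.19 and 10.29 in Hi pemetrexed cells and 10.07, 10.08 and 10.48 in Hi control cells. The lowest Lo pemetrexed array stood above every other array, and the 9 others overlapped. The change in Lo cells was 1.23 ± 0.11, or 2.35-fold (adjusted p = 2.82e-05). SERTAD1, which binds cyclin-dependent kinase 4 and acts on transcription by E2F, had 10.61, 10.65 and 10.62 in Lo pemetrexed cells, against 9.70, 9.67 and 9.54 in Lo control cells, 9.84, 9.59 and 9.72 in Hi pemetrexed cells and 9.76, 9.59 and 9.81 in Hi control cells. The Lo pemetrexed arrays lay close together and above the rest, and the change was 0.99 ± 0.08 (1.98-fold, adjusted p = 1.99e-05). PLK3, a stress-activated kinase, rose by 0.72 ± 0.10 (adjusted p = 0.000761). PLK2, its relative, differed by 0.04 ± 0.08 with overlapping groups in Lo cells, and ZMAT3, an RNA-binding protein, differed by 0.12 ± 0.06 (adjusted p = 0.272), and neither passed the test.

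Of the 12 genes of apoptosis, 8 rose in Lo cells: the death receptors FAS and TNFRSF10B, and PMAIP1, PERP, AEN, PHLDA3, TP53INP1 and TRIAP1. Their log2 changes ran from 0.37 for TNFRSF10B to 0.89 for PMAIP1. AEN, a nuclease that breaks DNA in dying cells, had 11.16, 11.24 and 11.28 in Lo pemetrexed cells, against 10.46, 10.55 and 10.33 in Lo control cells, 10.31, 10.26 and 10.35 in Hi pemetrexed cells and 10.16, 10.38 and 10.67 in Hi control cells. All Lo pemetrexed arrays were above the other 9, the highest of which was the array labelled Hi control 3, and the change was 0.78 ± 0.11 (adjusted p = 0.000684). PERP, a membrane protein of desmosomes that promotes apoptosis, had 10.65, 10.77 and 10.55 in Lo pemetrexed cells, against 10.24, 10.15 and 10.12 in Lo control cells, 10.10, 9.94 and 9.99 in Hi pemetrexed cells and 10.06, 10.00 and 10.15 in Hi control cells. The Lo pemetrexed arrays again stood above all others, with a change of 0.49 ± 0.08 (adjusted p = 0.0016). FAS, the receptor for Fas ligand and another gene with a printed promoter match, had 10.83, 10.88 and 10.90 in Lo pemetrexed cells, against 10.09, 10.22 and 9.75 in Lo control cells, 9.72, 9.79 and 9.99 in Hi pemetrexed cells and 9.74, 9.70 and 10.36 in Hi control cells. The Lo pemetrexed arrays were close together and above all others, while both control groups were spread by the arrays labelled replicate 3, and FAS rose by 0.85 ± 0.16 (1.80-fold, adjusted p = 0.00502). TNFRSF10B, a receptor for the death ligand TRAIL, had 11.75, 11.87 and 11.83 in Lo pemetrexed cells, against 11.34, 11.46 and 11.53 in Lo control cells, 11.52, 11.59 and 11.48 in Hi pemetrexed cells and 11.60, 11.55 and 11.41 in Hi control cells, and rose by 0.37 ± 0.08 (adjusted p = 0.00714). Of the rest, PHLDA3, which competes with the survival kinase AKT for membrane lipids, rose by 0.53 ± 0.10, TP53INP1, a stress protein that promotes p53 activity and autophagy, by 0.48 ± 0.09, and TRIAP1, a mitochondrial protein that restrains apoptosis, by 0.50 ± 0.08. On all 4 genes of these last sentences the lowest Lo pemetrexed array was above every other array.

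The genes of the BCL2 family, which act on the mitochondrial membrane, were uneven. PMAIP1, which encodes the BH3-only protein NOXA, had 11.15, 11.35 and 11.49 in Lo pemetrexed cells, against 10.11, 10.54 and 10.65 in Lo control cells, 10.34, 10.95 and 10.75 in Hi pemetrexed cells and 10.53, 10.93 and 10.26 in Hi control cells. Every Lo pemetrexed array was above every other array, but the arrays of each group lay far apart, and the rise of 0.89 ± 0.19 (1.86-fold) had an adjusted p of 0.0104, which became 0.0524 without Lo pemetrexed 3. BBC3, which encodes PUMA, another BH3-only protein, had 9.38, 9.32 and 9.26 in Lo pemetrexed cells, against 9.12, 8.98 and 9.00 in Lo control cells, 9.28, 9.07 and 8.87 in Hi pemetrexed cells and 8.98, 9.07 and 9.17 in Hi control cells. The Lo pemetrexed arrays were above the Lo controls but not all above Hi pemetrexed 1. The difference in Lo cells, 0.28 ± 0.10, did not pass the test (adjusted p = 0.0879). It passed with only the arrays compared (adjusted p = 0.0473), without Hi pemetrexed 1 (0.0443) and without Hi pemetrexed 3 (0.0496). On 10 arrays with the replicate number as a block it passed as well (0.0194). BAX, which forms pores in the mitochondrial outer membrane, had 11.75, 11.61 and 11.77 in Lo pemetrexed cells, against 11.59, 11.49 and 11.57 in Lo control cells, 11.55, 11.44 and 11.60 in Hi pemetrexed cells and 11.47, 11.43 and 11.62 in Hi control cells. The array labelled Hi control 3 lay within the Lo pemetrexed arrays, and the difference in Lo cells was 0.16 ± 0.08 (95% interval -0.01 to 0.33, adjusted p = 0.238). EDA2R, a receptor of the tumour necrosis factor family, and CYFIP2, a p53-inducible protein that is also part of an actin-regulating complex, differed by 0.45 ± 0.15 and 0.35 ± 0.11, and neither passed the test (adjusted p = 0.086 for EDA2R and 0.0718 for CYFIP2). Blocking on the replicate number changed both calls on 10 arrays, to an adjusted p of 0.00715 for EDA2R and 0.042 for CYFIP2, and that of EDA2R on 12 arrays (0.0053). CYFIP2 also passed with quantile normalization (adjusted p = 0.045) and without Hi control 3 (0.0282), and EDA2R without Lo control 2 (0.027).

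In DNA repair, 3 of 4 genes rose in Lo cells. DDB2, which recognises ultraviolet lesions for nucleotide excision repair and has the exact promoter match, had 12.71, 12.68 and 12.54 in Lo pemetrexed cells, against 12.14, 12.07 and 11.98 in Lo control cells, 11.94, 11.86 and 12.001 in Hi pemetrexed cells and 11.90, 11.89 and 12.18 in Hi control cells. All Lo pemetrexed arrays stood above the rest, and the change was 0.58 ± 0.09 (adjusted p = 0.00132). XPC, which senses distorted DNA in the same pathway, had 9.98, 10.17 and 10.15 in Lo pemetrexed cells, against 9.48, 9.54 and 9.16 in Lo control cells, 9.19, 9.16 and 9.24 in Hi pemetrexed cells and 9.32, 9.16 and 9.56 in Hi control cells. The lowest Lo control array was the one labelled Lo control 3 and the highest Hi control array the one labelled Hi control 3, and the Lo pemetrexed arrays were above all of these, with a change of 0.71 ± 0.12 (adjusted p = 0.00185). POLH, a polymerase that copies past damaged bases, rose by 0.49 ± 0.11 (adjusted p = 0.0136, and 0.0514 without Lo pemetrexed 3). RRM2B, the p53-inducible subunit of ribonucleotide reductase, the enzyme that makes deoxynucleotides, differed by 0.26 ± 0.12 and did not pass the test (adjusted p = 0.194).

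In metabolism and mitochondria, TP53I3, SPATA18 and TIGAR rose in Lo cells. TP53I3, an oxidoreductase linked to reactive oxygen, had 11.14, 11.05 and 10.97 in Lo pemetrexed cells, against 10.06, 10.24 and 9.41 in Lo control cells, 9.55, 9.46 and 9.50 in Hi pemetrexed cells and 9.35, 9.47 and 10.01 in Hi control cells. The Lo pemetrexed arrays were the highest, Lo controls 1 and 2 and the array labelled Hi control 3 came next, and the array labelled Lo control 3 lay among the Hi arrays. The change in Lo cells was 1.15 ± 0.19 (2.22-fold, adjusted p = 0.00223) with all arrays and 0.90 ± 0.08 with 10 arrays (adjusted p = 3.89e-05). SPATA18, which takes part in the quality control of mitochondria, had 9.80, 9.90 and 9.89 in Lo pemetrexed cells, against 9.59, 9.64 and 9.31 in Lo control cells, 9.25, 9.33 and 9.40 in Hi pemetrexed cells and 9.46, 9.43 and 9.58 in Hi control cells. The order of the arrays was like that of TP53I3 over a smaller span, and the rise of 0.35 ± 0.09 (adjusted p = 0.0244) was 0.25 ± 0.07 with 10 arrays, where it did not pass the test (adjusted p = 0.0524). SPATA18 also missed the threshold without Lo control 3 alone (adjusted p = 0.0955), without Lo pemetrexed 2 (0.08) and without Lo pemetrexed 3 (0.0823). TIGAR, a phosphatase that lowers glycolysis, rose by 0.54 ± 0.14 (adjusted p = 0.0255). It missed the threshold when the array labelled Lo control 3 (adjusted p = 0.0849) or any single Lo pemetrexed array (0.0539 to 0.0912) was left out. SESN1, a stress protein that restrains mTORC1, differed by 0.07 ± 0.06 with an adjusted p of 0.613.

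GDF15, a secreted stress cytokine, rose in Lo cells, and TRIM22, an antiviral ubiquitin ligase, differed by 0.14 ± 0.10 and did not pass the test (adjusted p = 0.503). GDF15 had 13.63, 13.52 and 13.49 in Lo pemetrexed cells, against 13.11, 13.09 and 13.11 in Lo control cells, 13.29, 13.11 and 13.16 in Hi pemetrexed cells and 13.18, 13.16 and 13.06 in Hi control cells. The Lo controls lay close together, all Lo pemetrexed arrays were above the other 9, and the change was 0.45 ± 0.07 (adjusted p = 0.00163).

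**Figure D2:**
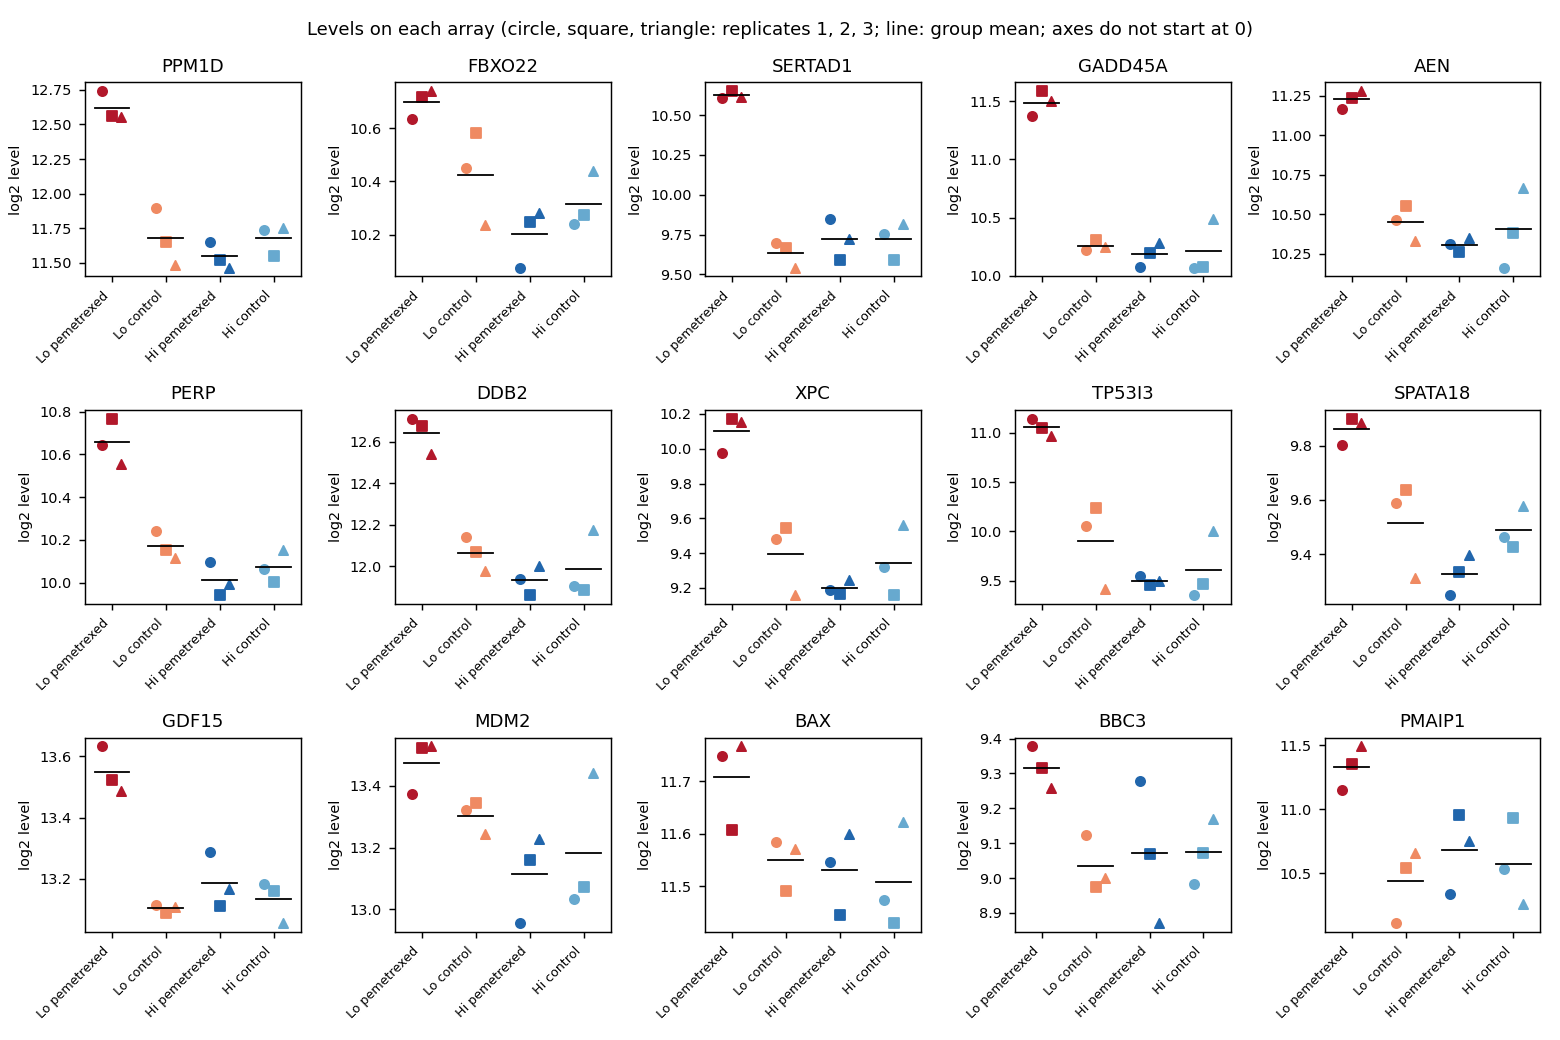
Log2 level (vertical axes, which do not start at 0) of 15 p53 target genes on each array of the 4 groups (across, Lo pemetrexed first), with replicates 1, 2 and 3 as circle, square and triangle and the group mean as a line. GADD45A, SERTAD1 and PPM1D show the Lo pemetrexed arrays clear of the other 9, BAX and BBC3 show overlap with a Hi array, and the triangles of both control groups stand away from the circles and squares for TP53I3 and XPC.

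In Hi cells the same dose gave no called change among the p53 targets. Of the 31 genes, 0 rose and 0 fell (limma, adjusted p under 0.05), 0 had an unadjusted p under 0.05, and the share of all genes called was 0% in either direction, with 266 of 18417 at an unadjusted p under 0.05. The fitted change was above 0 for 6 of the 31, with a median of -0.04, and the 95% intervals of all 31 lay between -0.53 and 0.53. GADD45A differed by -0.03 ± 0.11 in Hi cells, SERTAD1 by -0.0004 ± 0.08, PPM1D by -0.13 ± 0.11 and TP53I3 by -0.11 ± 0.19. The largest positive value was that of PMAIP1 (0.11 ± 0.19) and the lowest that of CYFIP2 (-0.20 ± 0.11). ZMAT3 was the only member with every Hi pemetrexed array above every Hi control array (2.48% of all genes), by 0.07 ± 0.06. On CYFIP2 and SPATA18 every Hi pemetrexed array was below every Hi control array (2.96% of all genes), and SPATA18 differed by -0.16 ± 0.09. With 10 arrays the called counts in Hi cells were again 0 and 0, 16 of the 31 genes were above 0 and the median was 0.0014.

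**Figure D3:**
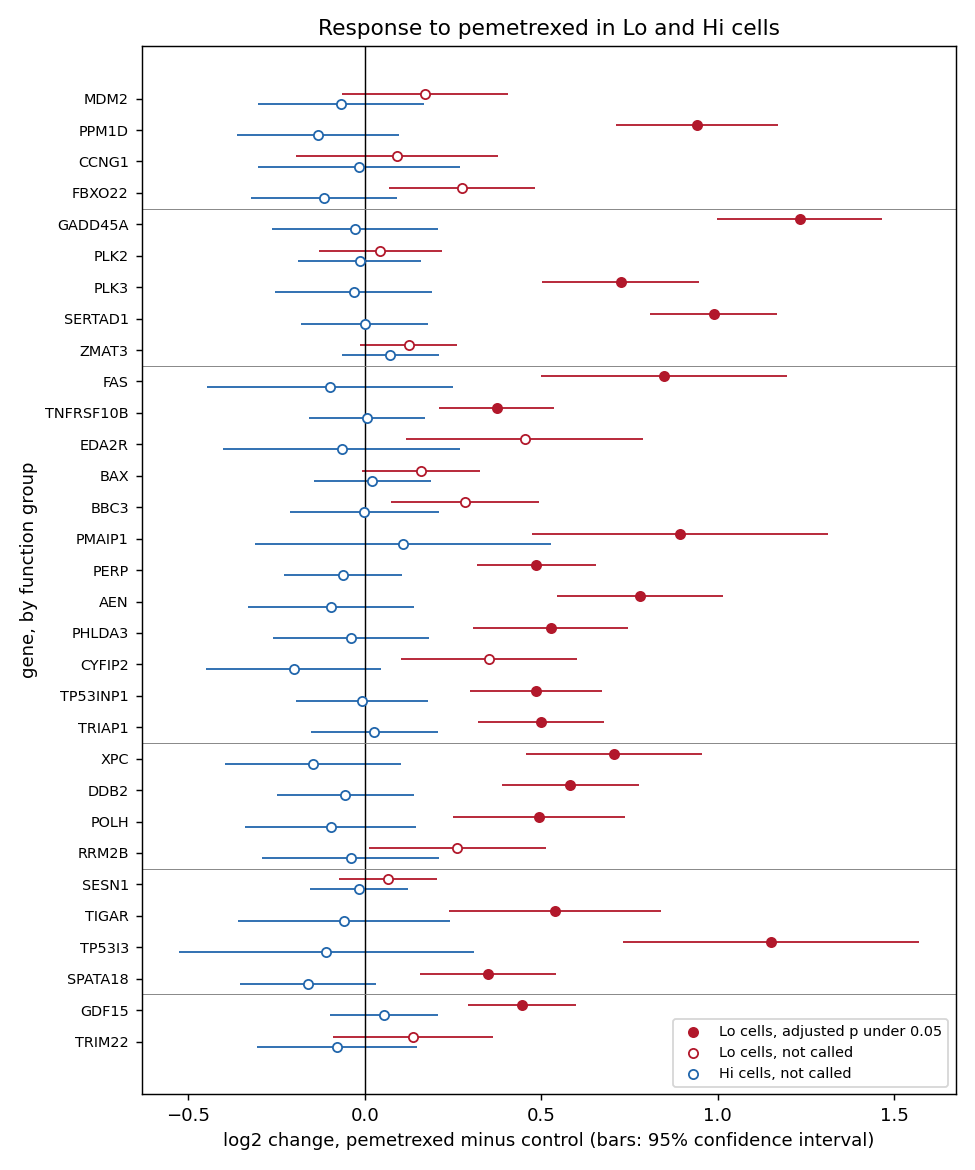
Log2 change with pemetrexed (horizontal axis, pemetrexed minus control, bars for the 95% confidence interval) of each p53 target gene (down, by function group) in Lo cells (red, filled where the adjusted p was under 0.05) and Hi cells (blue), from all 12 arrays. The 19 filled points lie between 0.35 and 1.23, and no Hi point is called.

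The difference between the 2 responses was tested by itself, as an interaction. It was higher in Lo cells for 15 of the 31 genes (adjusted p under 0.05, limma), where 2.57% of all genes had a higher and 2.24% a lower response in Lo cells, and no member had a lower one. The median difference of responses was 0.52 on the log2 scale, against 0.02 over all genes. It was 1.26 ± 0.15 for GADD45A (adjusted p = 0.000922), 0.99 ± 0.12 for SERTAD1 (0.000796), 1.07 ± 0.15 for PPM1D (0.002) and 1.26 ± 0.27 for TP53I3 (0.0217). Without both controls labelled replicate 3 it was 0.81 ± 0.12 for TP53I3 (0.00271) and 0.60 ± 0.12 for FAS (0.0193), against 0.95 ± 0.23 for FAS with all arrays (0.0344). Both calls were lost under other settings. With all probe sets tested the adjusted p was 0.0789 for FAS and 0.0545 for TP53I3. With a single array left out it reached 0.0857 for FAS (Lo pemetrexed 3) and 0.0563 for TP53I3 (Hi pemetrexed 2). By function, 1 of 4 feedback genes, 3 of 5 arrest genes, 6 of 12 apoptosis genes, 2 of 4 repair genes, 2 of 4 metabolic genes and 1 of 2 secreted or antiviral genes passed. With 10 arrays 13 passed and none had a lower response (2.02% of all genes higher and 2.14% lower), and 11 of the 13 were among the 15: GDF15, PHLDA3, SPATA18 and TRIAP1 dropped out, and PMAIP1 and TNFRSF10B came in. PPM1D, GADD45A, PLK3, SERTAD1, PERP, AEN, XPC and DDB2 passed under every alternative setting run. The count fell to 8 without Lo pemetrexed 1 and to 9 without any one of Lo pemetrexed 2, Lo pemetrexed 3, Hi pemetrexed 2, Hi pemetrexed 3 or the array labelled Lo control 3. On 10 arrays a fit with replicate number as a block gave 20, with no share of all genes from that fit to set beside it.

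Set against treated Hi cells, treated Lo cells had higher levels of 24 of the 31 genes and lower levels of none, with 11.3% of all genes higher and 11.0% lower. With 10 arrays TRIM22 joined these 24 (13.7% of all genes higher and 14.0% lower). On 10 arrays with the block CCNG1, BAX and BBC3 were called as well, in a fit whose share of all genes called is not given here. The median difference was 0.54, and on 27 of the 31 genes every Lo pemetrexed array was above every Hi pemetrexed array (18.6% of all genes). TP53I3 was 2.94-fold higher (1.55 ± 0.19, adjusted p = 0.000222), GADD45A differed by 1.31 ± 0.11 and PPM1D by 1.07 ± 0.11. Genes that were higher here without a call in the Lo response were MDM2 (0.36 ± 0.11, adjusted p = 0.031), FBXO22 (0.50 ± 0.10, 0.00296), CYFIP2 (0.61 ± 0.11, 0.00247), EDA2R (0.48 ± 0.15, 0.0409) and RRM2B (0.36 ± 0.12, 0.0433). The calls of MDM2, EDA2R, RRM2B, PMAIP1 and TNFRSF10B each ended when some single array was left out. CCNG1, PLK2, ZMAT3, BAX, BBC3, SESN1 and TRIM22 were not called with 12 arrays, with differences from 0.03 for ZMAT3 to 0.30 for TRIM22. This comparison and both responses share arrays, so their values stand side by side and are not independent.

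Without the drug, 0 of the 31 genes differed between Lo and Hi control cells (limma, 0 with an unadjusted p under 0.05; 0% of all genes called, and 387 of 18417 with an unadjusted p under 0.05). The median difference was 0.05, and 22 of the 31 were above 0. On 0 of the 31 genes was every Lo control array above every Hi control array, against 2.14% of all genes. Without the arrays labelled Hi control 3 and Lo control 3, the median was 0.16, 25 of the 31 were above 0, and 4 genes were higher and 0 lower in Lo control cells (3.67% and 3.50% of all genes). These were TP53I3 (0.74 ± 0.09, adjusted p = 0.000474), FAS (0.43 ± 0.10, 0.017), POLH (0.37 ± 0.09, 0.0282) and CYFIP2 (0.30 ± 0.08, 0.0311). With all 12 arrays the same differences were 0.29 ± 0.19 for TP53I3, 0.09 ± 0.16 for FAS, 0.15 ± 0.11 for POLH and 0.06 ± 0.11 for CYFIP2. On the 10 arrays the same-numbered arrays deviated together. In a fit that blocks on that number 7 of the 31 genes were called, 6 of them higher in Lo control cells and PMAIP1 lower (-0.40 ± 0.09, adjusted p = 0.0143). The share of all genes called in that blocked fit is not given here, so this count cannot be set against it. The choice of the 10 arrays was made after their values had been seen, and each control group then has 2 arrays.

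**Figure D4:**
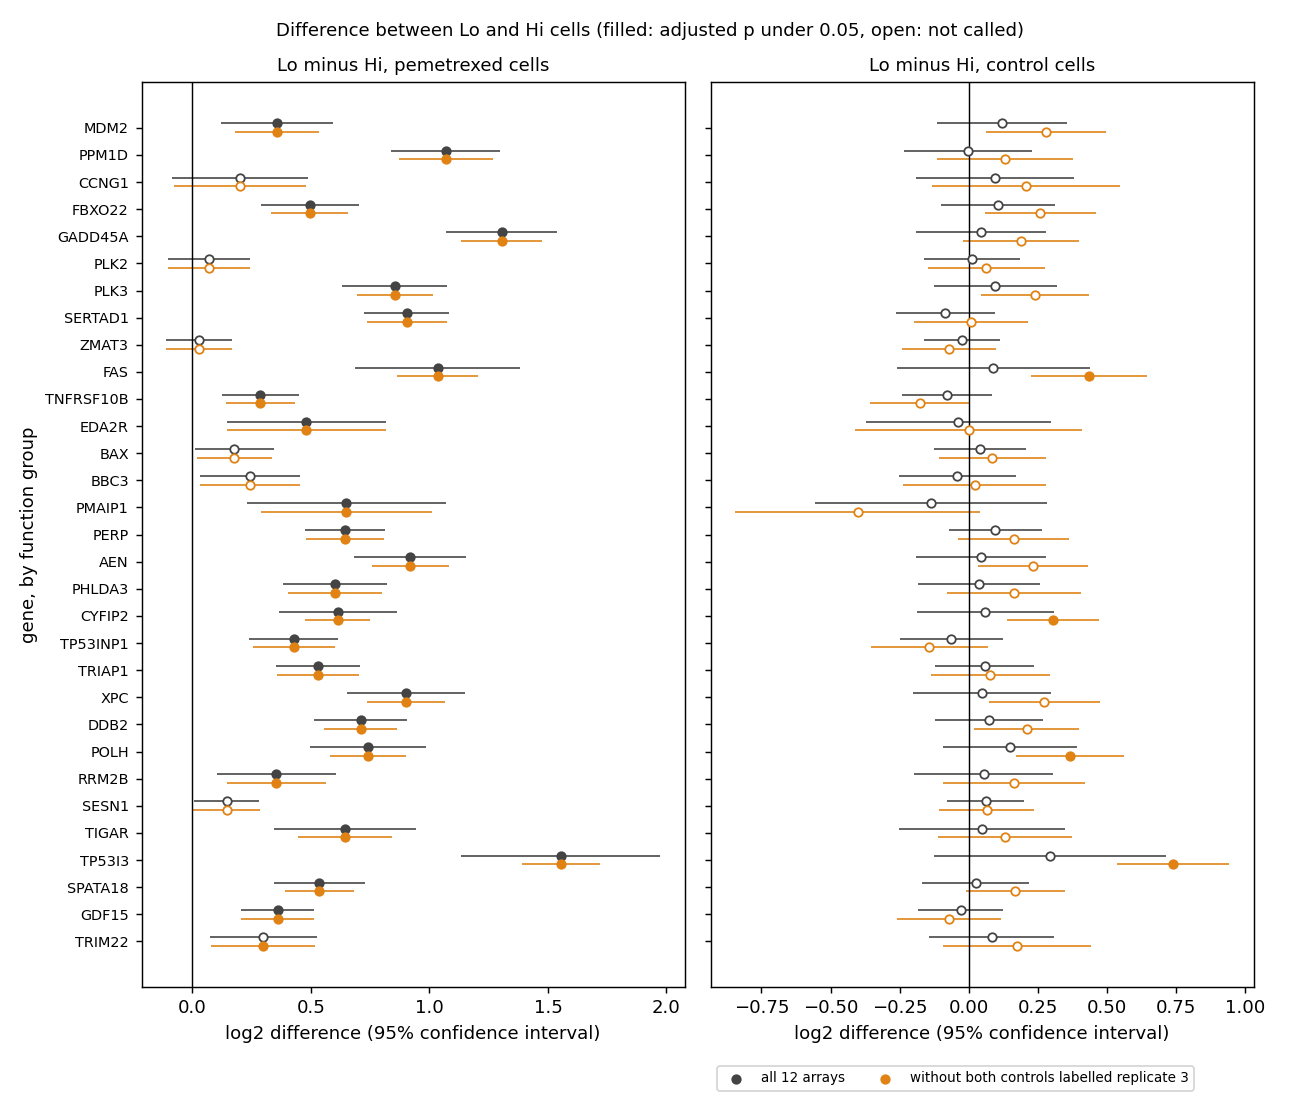
Log2 difference, Lo minus Hi (horizontal axes, bars for the 95% confidence interval), of each p53 target gene (down) in pemetrexed cells (left) and control cells (right), with all 12 arrays (grey) and without both controls labelled replicate 3 (orange), filled where the adjusted p was under 0.05. In pemetrexed cells 24 grey and 25 orange points are filled, and in control cells only 4 orange ones, TP53I3, FAS, POLH and CYFIP2.

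Other genes of the pathway were read from 2 further lists, also chosen with earlier results of these data known. Of 26 measured further p53 targets, 17 rose and 1 fell in Lo pemetrexed cells, with a median of 0.49, where 5.60% of all genes rose and 5.14% fell, and 0 changed in Hi cells (0% of all genes, and 1 of the 26 at an unadjusted p under 0.05). With 10 arrays 16 rose and 1 fell in Lo cells. Those with the smallest p were SESN2, an mTORC1 inhibitor (0.89 ± 0.08, adjusted p = 3.88e-05), SFN, which holds cells before mitosis (0.91 ± 0.10, 0.000119), and TGFA, a growth factor (0.58 ± 0.07, 0.000274). THBS1, an inhibitor of blood vessel growth, was the one that fell (-0.45 ± 0.06). In treated Lo against treated Hi cells 16 of the 26 were higher and 3 lower, THBS1 among these 3 (11.3% and 11.0% of all genes). CDKN1A, the kinase inhibitor p21, had 12.15, 12.01 and 11.91 in Lo pemetrexed cells, against 11.40, 11.34 and 11.20 in Lo control cells, 11.28, 11.24 and 11.25 in Hi pemetrexed cells and 11.19, 11.28 and 11.47 in Hi control cells. It rose by 0.71 ± 0.09 in Lo cells (adjusted p = 0.000364) and differed by -0.05 ± 0.09 in Hi cells. Of 13 measured regulators of p53 and of damage signalling, 0 rose and 2 fell in Lo pemetrexed cells (5.60% and 5.14% of all genes), the checkpoint kinases CHEK1 (-0.76 ± 0.15, adjusted p = 0.00595) and CHEK2 (-0.38 ± 0.10, 0.0287). With 10 arrays the same counts were found, and 1 of the 13 was called when Lo control 1, Lo control 2 or any single Lo pemetrexed array was left out. MDM4, the relative of MDM2 that blocks p53, differed by 0.24 ± 0.12 and did not pass the test (adjusted p = 0.263). The transcript of p53 itself was not analysed here.

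**Figure D5:**
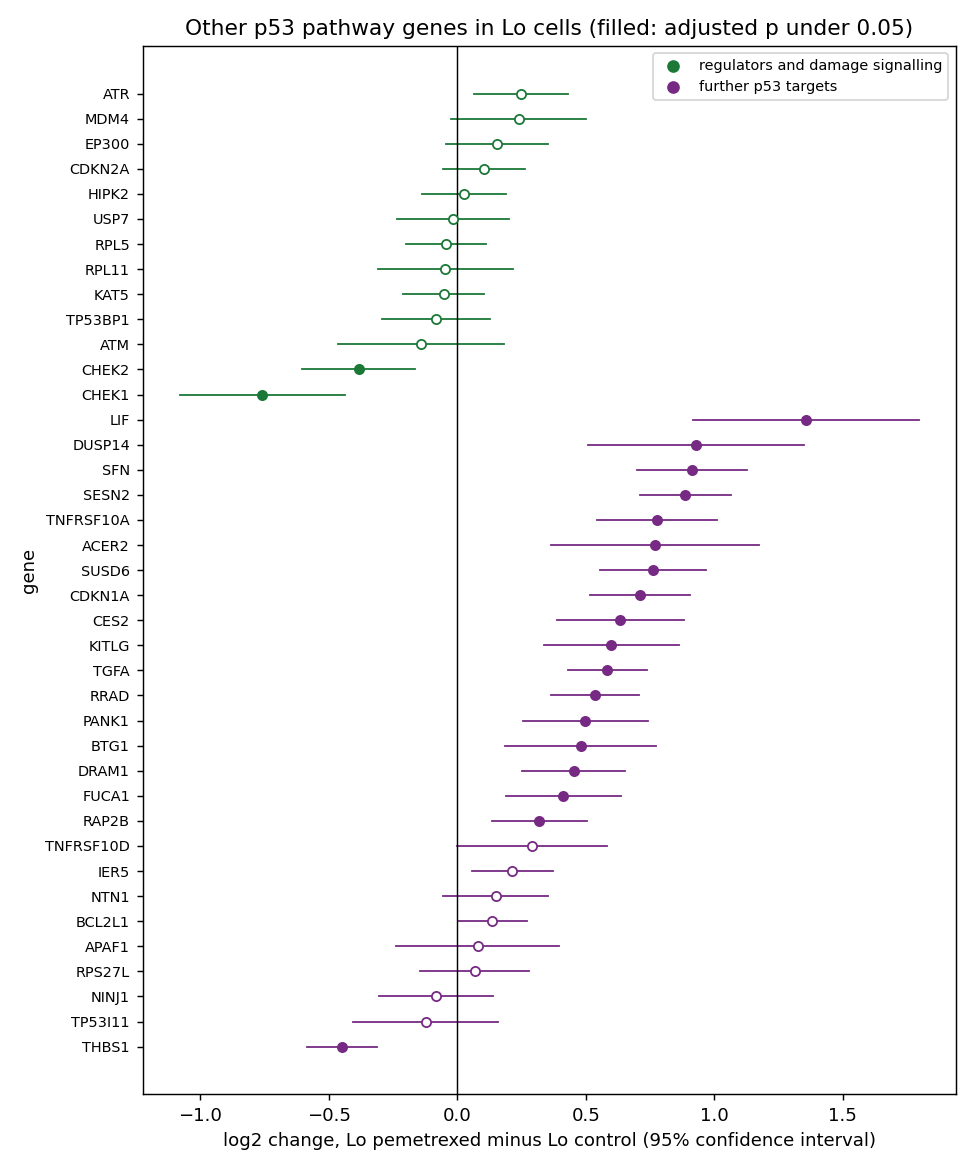
Log2 change in Lo cells, pemetrexed minus control (horizontal axis, bars for the 95% confidence interval), of 13 regulators and damage signalling genes (green) and 26 further p53 targets (purple), filled where the adjusted p was under 0.05. The filled purple points lie to the right of 0 apart from THBS1, and the filled green ones, CHEK1 and CHEK2, lie to the left.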

How the data were processed

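Expression was measured on 12 Affymetrix arrays. The deposited values are log2 levels of 33297 probe sets, which the authors normalized by RMA in Partek 6.5, per the submitters' processing notes. RMA settings are not given in the sources used here. RMA uses all arrays together, so values of one array depend on the others, and precision is limited by how many arrays there are. A platform annotation named 1 gene for 19460 probe sets, several for 1754 and none here for 12083, and symbols were updated through RefSeq (GRCh38.p14). Where a gene had several probe sets the one with the highest mean over all arrays was kept, which left 18417 genes. A linear model with 4 group means was fitted to all 12 arrays (8 residual degrees of freedom) with limma 3.58.1 in R 4.3.3, and p-values were adjusted over all genes by the Benjamini-Hochberg method. Contrasts were pemetrexed against control in Lo and in Hi cells, Lo against Hi in treated and in control cells, and the difference of the 2 responses. The procedure was tested on simulated data with independent noise. Those data held no arrays apart from their labels and no deviations shared by same-numbered arrays, so they do not bear on these features. The 31 genes and the other lists were chosen with earlier results of these data known. Values on every array are given for the 2 genes with the smallest p in the Lo response in each function group, if called in Lo cells, in treated cells or in the interaction, and for MDM2, BAX, BBC3 and PMAIP1. FAS and TNFRSF10B were added after their values were seen. From the other lists, up to 3 called genes with the smallest p are named, and CDKN1A and MDM4. Alternatives were leaving out each array, the replicate number as a block, quantile normalization, median centring, a filter on dim genes, testing all probe sets, averaging probe sets, a robust trend and using only the arrays compared. On 10 arrays, without both controls labelled replicate 3, all 13 same-numbered pairs deviated together (correlation 0.115 to 0.543), so blocked counts are given there. In a control group of 2 arrays the deviations from the group mean are equal and opposite. These correlations are therefore not independent of each other.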

Additional observations from a re-analysis of the deposited data

Results flagged for a closer look

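The response to pemetrexed differed between Lo and Hi cells for 15 of the 31 p53 target genes by the limma interaction test, which compares the log2 change in Lo cells with that in Hi cells. The difference of changes was 1.26 for GADD45A, 1.26 for TP53I3, 1.07 for PPM1D, 0.99 for SERTAD1, 0.95 for FAS, 0.88 for AEN, 0.85 for XPC and 0.76 for PLK3. It was 0.64 for DDB2, 0.57 for PHLDA3, 0.55 for PERP, 0.51 for SPATA18, 0.49 for TP53INP1, 0.47 for TRIAP1 and 0.39 for GDF15. Without both controls labelled replicate 3 the difference was 0.81 for TP53I3 and 0.60 for FAS. In each of the 15 the change in Lo cells was above 0 and was called, and the change in Hi cells was not called. Groups of 3 arrays are too small for the test for a sample far from the others.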

How the results depend on the processing

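Counts of p53 target genes called in Lo cells (19), Hi cells (0) and treated Lo against treated Hi cells (24) stayed within 1.5 times under every alternative run. Leaving out 1 array at a time gave 15 to 21 in Lo cells, 0 to 0 in Hi cells, 0 to 0 in controls, 19 to 25 in treated cells and 8 to 14 for the interaction (15 with all arrays). Testing all probe sets lowered the interaction to 8, where more features are adjusted for. Without both controls labelled replicate 3, an alternative chosen after seeing the data, the control comparison gave 4 calls against 0, and 7 (6 higher and 1 lower) with the replicate block as well. With the replicate block on all 12 arrays the counts were 20 in Lo cells, 0 in Hi cells, 0 in controls, 25 in treated cells and 16 for the interaction. There the numbers are only a label: same-numbered arrays correlated from -0.656 to 0.514 (11 of 18 pairs over 0.1), and 5 of 12 arrays correlated best with their own number. With 10 arrays and the block they were 22 in Lo cells, 0 in Hi cells, 28 in treated cells and 20 for the interaction. Shares of all genes called in the blocked fits are not given here, so higher blocked counts are not a result about the members. Calls held in every alternative for 15 of the 19 genes in Lo cells, 19 of 24 in treated cells and 8 of 15 for the interaction, and no called value changed sign. With 3 arrays a group, changes such as those of BBC3, FBXO22 and EDA2R in Lo cells lay near the threshold.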

Other observations

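Among the p53 target genes, the array labelled Hi control 3 was the highest of the Hi controls for 22 of 31 (71.0%), against 8346 of 18417 genes in all (45.3%). The array labelled Lo control 3 was the lowest of the Lo controls for 19 of 31 (61.3%), against 5867 of all genes (31.9%). Both held for 16 of the 31 genes (51.6%) and for 18.9% of all genes. The cause was not tested.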
